A study of Mus musculus with 12 samples.

Results

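The nuclear hormone receptors are the 46 genes of a fixed list: estrogen receptors and estrogen-related receptors, the progesterone, glucocorticoid and mineralocorticoid receptors, the retinoid, thyroid hormone, vitamin D and fatty acid (PPAR) receptors, and the orphan receptors of the NR0 to NR6 subfamilies. They were found on the arrays through the transcript accession given for each probe, since the scanner files name probes by accession and not by symbol. Of the 46 genes, 45 had a probe, with 57 probes among the 41174 on the array: 34 genes had 1 probe, 10 had 2 and 1 had 3. Nr3c2, the mineralocorticoid receptor, matched no probe and was not analysed here. The named genes on the array numbered 15972.

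TM3 cells are an established line of Leydig cells from the testis of the immature mouse. Methoxyacetic acid (MAA), the toxic metabolite of an industrial glycol ether, was added at 1 mM or 5 mM for 3, 8 or 24 h, and control cells were left without MAA in the same medium for the same time. RNA of each of the 6 treatments was compared with control RNA on 2 arrays, each with a separate pool of 3 MAA-treated cultures. The dyes were exchanged between the pair: replicate 1 carried MAA-treated RNA in the green channel and replicate 2 in the red channel, on different slides. Every value below is therefore from n = 2 arrays per treatment of a single cell line, and the number of arrays limits the precision. Over all probes, log2 ratios of the 2 arrays correlated at 0.496, 0.63 and 0.644 for 3, 8 and 24 h of 5 mM. At 1 mM the correlations were -0.134, 0.133 and 0.309. Over probes with a channel well above background on both arrays, they were 0.69, 0.832 and 0.836 at 5 mM. Such probes gave 0.154, 0.358 and 0.595 at 1 mM, so the 1 mM pairs agreed less. The 1 mM and 5 mM treatments of a given time share their untreated cultures or may share them, and are not independent of each other.

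Nuclear receptors are transcription factors that bind DNA, in many cases only once a small lipophilic molecule such as a steroid, a retinoid or a fatty acid fills their ligand pocket. Most carry a zinc finger DNA-binding domain and recruit corepressors or coactivators, the corepressors acting in part through histone deacetylases. The NR4A receptors are an exception in that their activity follows their abundance, and they are immediate early genes in steroidogenic cells, where luteinizing hormone and cyclic AMP induce them. Rev-erb receptors (Nr1d1, Nr1d2) and ROR receptors belong to the circadian clock, and steroidogenic factor 1 (Nr5a1) directs Leydig cell differentiation. MAA is known as an inhibitor of histone deacetylases.

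Promoters are shown for the receptors on which the results turn: Nr4a1 and Nr4a2, which share an early rise, and Rarb, which had the highest log2 ratio at 1 mM of the 57 receptor probes. The sequences are from RefSeq (GRCm38.p6) and cover the 250 bases before the annotated start, 5′ to 3′ on the strand of the gene. In the first pair, capitals mark TGACG or its reverse complement, the core of the cyclic AMP response element. In Rarb, capitals mark GGTTCA and AGTTCA in a row, 5 bases apart, the repeat through which retinoic acid receptors are known to activate this gene.
Nr4a1, chr15:101266596-101266845, plus strand: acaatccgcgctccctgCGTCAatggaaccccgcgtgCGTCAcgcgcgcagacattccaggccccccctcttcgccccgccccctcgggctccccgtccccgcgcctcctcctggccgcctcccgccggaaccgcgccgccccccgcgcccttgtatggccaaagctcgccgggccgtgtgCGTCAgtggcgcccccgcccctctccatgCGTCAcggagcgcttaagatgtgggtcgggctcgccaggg
Nr4a2, chr2:57124004-57124253, minus strand: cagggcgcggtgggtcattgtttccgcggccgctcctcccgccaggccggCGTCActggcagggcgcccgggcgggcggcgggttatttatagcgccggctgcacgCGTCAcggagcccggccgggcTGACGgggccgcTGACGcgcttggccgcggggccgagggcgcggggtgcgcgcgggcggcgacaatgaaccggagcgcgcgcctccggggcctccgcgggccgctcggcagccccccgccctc
Rarb, chr14:16575477-16575726, minus strand: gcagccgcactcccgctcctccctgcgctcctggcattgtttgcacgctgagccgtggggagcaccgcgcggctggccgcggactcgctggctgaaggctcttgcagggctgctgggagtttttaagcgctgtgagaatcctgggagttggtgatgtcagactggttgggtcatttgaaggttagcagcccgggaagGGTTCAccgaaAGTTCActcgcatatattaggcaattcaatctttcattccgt
Nr4a1 and Nr4a2 each held 4 matches, and so did Nr4a3. At least 1 match stood in 17.8% of the 32851 mouse promoters of the same length, searched on both strands, and 4 or more stood in 0.137%. Nr4a1 and Nr4a2 were shown because of their early rise, so these matches are a description and not a test. Nr6a1, which also rose early, held 1 match at 1 of its starts, and Nr2e1, dim in every control channel, held 3. The Rarb pair began 53 bases before the start and stood in 2 of the 32851 promoters, or 0.00609%. Its letters are those of the repeat already known from this gene, so the match in Rarb was fixed in advance. Any 2 hormone receptor half-sites in a row, 5 bases apart, stood in 29 promoters, or 0.0883%. The promoters of 42 of the 46 receptors were in the RefSeq table, several of them with more than 1 start, and 13 of the 63 searched held TGACG. A match describes the letters of the window and was not tested as a binding site.

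In untreated TM3 cells, 25 of the 45 receptor genes had a probe well above background in the control channel on all 12 arrays, 10 on some of them and 10 on none. By probe these were 32, 12 and 13 of 57, so 56.1% of receptor probes were measured on every control channel, beside 58.4% of all probes. In the retinoid, thyroid and vitamin D branch (NR1), 11 of 18 genes were measured on every array: the retinoic acid receptors Rara and Rarg, the thyroid hormone receptor Thra, the vitamin D receptor Vdr, Ppara and Pparg, Rora, the Rev-erb genes Nr1d1 and Nr1d2, the oxysterol receptor Nr1h2 and the bile acid receptor Nr1h4. Rarb, the thyroid receptor Thrb, Ppard, the oxysterol receptor Nr1h3 and the xenobiotic receptor Nr1i3 were measured on 8, 9, 8, 9 and 11 of the 12. The xenobiotic receptor Nr1i2 and Rorb were measured on none.

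Of the steroid receptor branch (NR3), Esr1, the estrogen-related receptors Esrra and Esrrg and the glucocorticoid receptor Nr3c1 were measured on all 12 control channels, while Esr2, Esrrb and the progesterone receptor Pgr were measured on none. In NR2, 7 of 12 genes were measured on all: the RXR partners Rxra and Rxrb, the COUP transcription factors Nr2f1, Nr2f2 and Nr2f6, and the testicular receptors Nr2c1 and Nr2c2. Hnf4a was measured on 5 and Hnf4g on 1, and Rxrg, Nr2e1 and Nr2e3 on none. Nr4a1, Nr4a2 and the germ cell nuclear factor Nr6a1 were measured on all 12, and Nr4a3 on none. The orphan receptors that set the steroidogenic program were dim: Nr5a1 was measured on 8 control channels, Nr5a2 on 4, Nr0b2 on 2 and Nr0b1 (DAX1) on none.

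The labelled cell type rests on a mixed set of markers. Of 9 Leydig cell genes, Star, Cyp17a1 and Insl3 were measured on all 12 control channels, Nr5a1 on 8 and Hsd17b3 on 1, whereas the luteinizing hormone receptor Lhcgr, the side chain cleavage enzyme Cyp11a1, Hsd3b1 and Hsd3b6 were measured on none. On all 12 were also 3 of 9 Sertoli cell genes (Ctsl, Sox9 and Wt1), 3 of 8 germ cell genes, 2 of 6 macrophage genes, 4 of 6 peritubular genes and 0 of 6 endothelial genes. By the call rule given below, 3 of 11 Leydig marker probes were called at 24 h of 5 mM MAA and none at 3 h or 8 h. These were 2 rises, both of Cyp11a1, and 1 fall, of Insl3. Called probes of the other marker lists at the 5 mM times numbered 1 to 4 of 11 for Sertoli cells, 0 to 1 of 11 for germ cells and 0 to 3 of 10 for macrophages. They numbered 0 to 2 of 9 for peritubular cells and 0 to 2 of 7 for endothelial cells. Of all probes, 3.76%, 5.55% and 5.62% were called at 3, 8 and 24 h of 5 mM, and 4.68% at 24 h of 1 mM. Marker calls at 24 h of 1 mM were all rises: 5 of 9 peritubular, 3 of 11 Sertoli and 3 of 10 macrophage probes. The Leydig and endothelial lists had 1 call each there and the germ cell list 0. The part of these markers in the receptor results was not tested.

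MAA moved few receptors by the thresholds of the study. A probe was called at an unadjusted limma p under 0.005 and a change of more than 2-fold at 5 mM or 1.5-fold at 1 mM. At 5 mM, 2 receptor probes were called at 3 h, 3 at 8 h and 4 at 24 h, or 3.51%, 5.26% and 7.02% of the 57, and over all probes 3.76%, 5.55% and 5.62% were called. At 1 mM the counts were 2, 2 and 4, beside 1.95%, 2.37% and 4.68% of all probes. With counts this small the shares of receptors lay near those of the array. The calls fell on 10 genes: 6 rose (Nr4a1, Nr6a1, Esr2, Nr1d1, Nr1i2 and Rarb) and 4 fell (Esr1, Nr1d2, Nr1h4 and Nr2f1). A ratio describes RNA of the whole culture, in which fewer cells expressing a gene and less RNA of that gene per cell cannot be told apart.

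Many receptors had smaller changes. At a limma p under 0.05 after Benjamini-Hochberg adjustment, with no fold threshold, 7 receptor probes were higher and 9 lower at 3 h of 5 mM MAA, 9 and 9 at 8 h, and 12 and 3 at 24 h. These are 28.1%, 31.6% and 26.3% of the 57, beside 24%, 30.4% and 30.4% of all probes. At 1 mM, 8, 6 and 10 receptor probes passed, or 14.0%, 10.5% and 17.5%, beside 4.62%, 5.53% and 11.3% of all probes. In all, 21 genes passed in at least 1 treatment, 11 of them without a call by the fold rule, and 24 passed neither rule in any treatment. The median log2 ratio of the receptor probes was -0.12, -0.04 and 0.07 at 3, 8 and 24 h of 5 mM, and that of all probes -0.10, -0.04 and 0.03, so the 3 h values at 5 mM are to be read against a shift of -0.10.

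**Figure D1:**
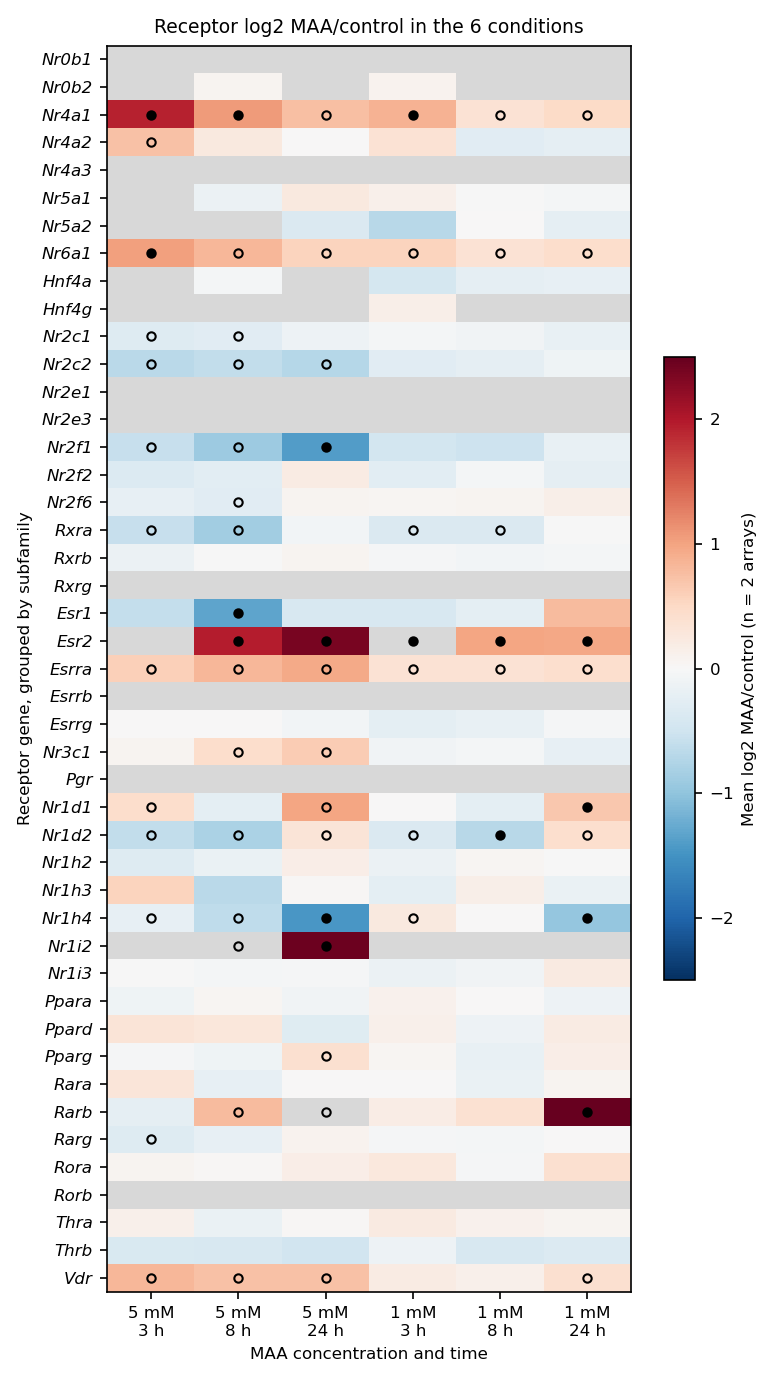
Mean log2 MAA/control (colour, n = 2 arrays) for the brightest probe of each of the 45 receptor genes (rows, grouped by subfamily) in the 6 treatments (columns). Grey cells had neither channel well above background on either array, filled circles mark calls by p and fold, open circles an adjusted p under 0.05 alone; Nr4a1, Nr6a1, Esrra and Nr1d2 are marked in all 6 columns.

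Nr4a1 (Nur77), the orphan receptor that drives steroidogenic gene promoters in Leydig cells, rose in all 6 treatments and most at 3 h. On the arrays of replicates 1 and 2 the log2 ratio was 1.81 and 2.03 at 3 h of 5 mM, 1.01 and 1.11 at 8 h, and 0.77 and 0.73 at 24 h. At 1 mM it was 0.86 and 0.89 at 3 h, 0.35 and 0.37 at 8 h, and 0.50 and 0.46 at 24 h. All 12 values lay above 0, and the 3 h pair stood above the later pairs at both concentrations. The mean rise at 3 h of 5 mM was 3.78-fold (log2 1.92, SE 0.07, limma, adjusted p = 1.3e-05), and at 3 h of 1 mM 1.84-fold (limma, adjusted p = 0.0017). The rise at 5 mM was smaller at 8 h than at 3 h by 0.85 on the log2 scale (SE 0.10, limma, adjusted p = 0.0068), and smaller at 24 h than at 3 h by 1.17 (limma, adjusted p = 0.00060). At 3 h and at 8 h it was larger at 5 mM than at 1 mM, by 1.04 and 0.70 on the log2 scale, with adjusted p (limma) of 0.0063 and 0.0058. Centring each array on its median left the difference at 8 h short of the threshold, with an adjusted p of 0.055.

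Nr4a2 (Nurr1), whose promoter holds the same number of TGACG matches, rose early as well but below 2-fold. Its log2 ratios were 0.57 and 0.90 at 3 h of 5 mM, 0.19 and 0.32 at 8 h, and -0.03 and 0.06 at 24 h. At 1 mM they were 0.25 and 0.47, then -0.32 and -0.24, then -0.23 and -0.22. The mean of 0.74 at 3 h of 5 mM passed the adjusted test (SE 0.09, limma, adjusted p = 0.00102) and the means of the other 5 treatments did not. The 24 h value at 5 mM was lower than the 3 h value by 0.72 (limma, adjusted p = 0.010). Nr4a3 (Nor1), with 4 matches too, had no signal above background in either channel on any array.

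Nr6a1 (germ cell nuclear factor), an orphan receptor that represses its targets and is best known from germ cells and embryos, followed a similar course at a lower height. Log2 ratios were 1.11 and 0.95 at 3 h of 5 mM, 0.76 and 0.89 at 8 h, and 0.53 and 0.58 at 24 h. At 1 mM the pairs were 0.56 and 0.56, 0.23 and 0.50, and 0.38 and 0.49. Every array lay above 0, and the 3 h rise of 2.04-fold was the one past 2-fold (limma, adjusted p = 0.000139). That call was lost without replicate 1 of 3 h at 5 mM, where replicate 2 alone gave a log2 ratio of 0.95. The mean fell from 1.03 at 3 h to 0.56 at 24 h of 5 mM (limma's adjusted p of the difference = 0.033).

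**Figure D2:**
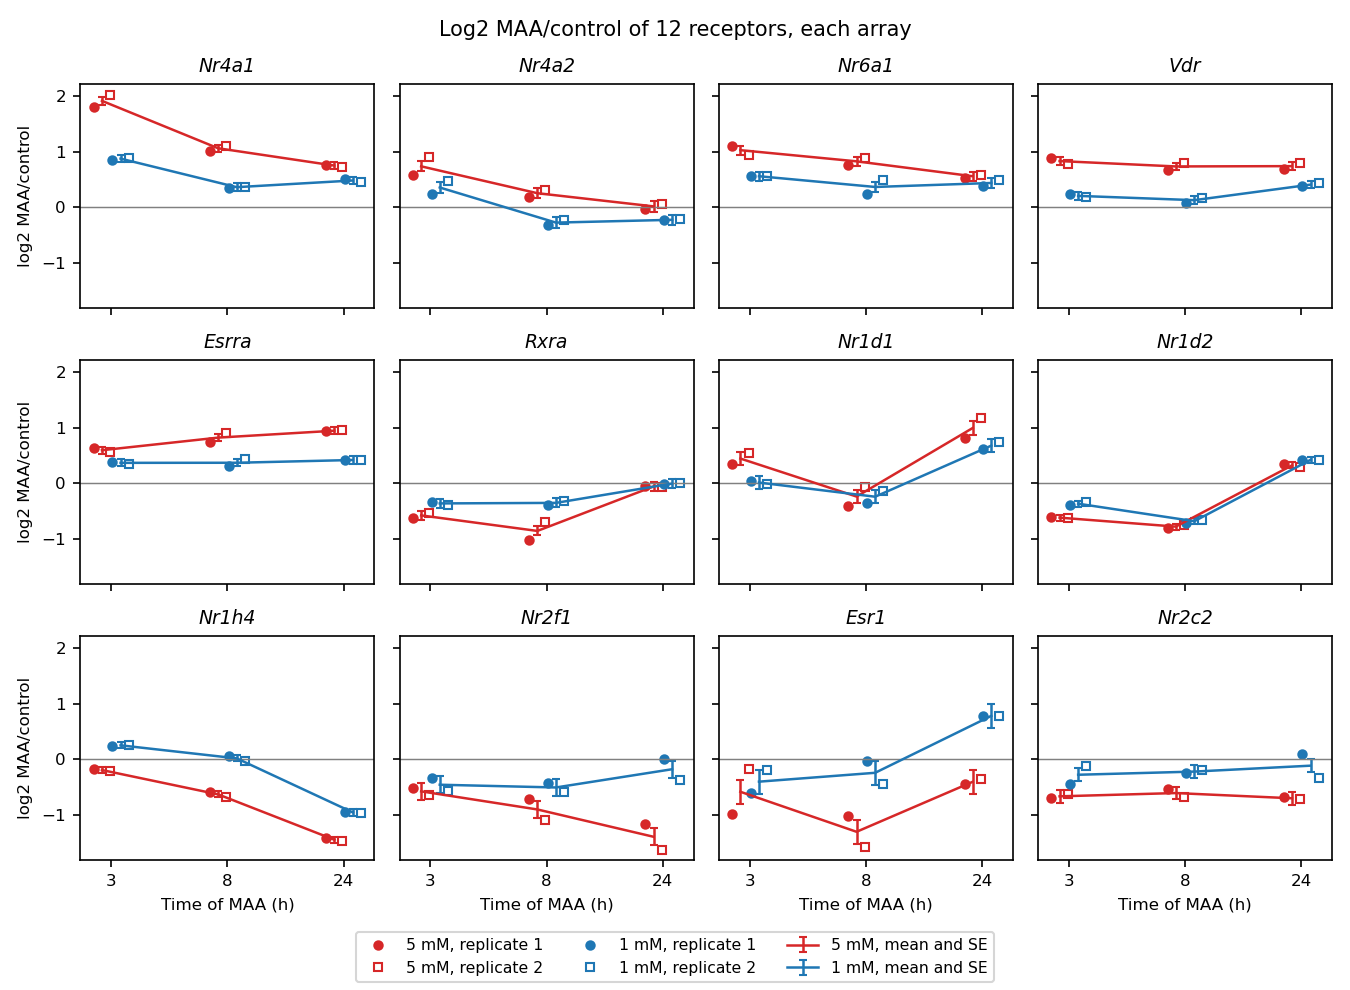
Log2 MAA/control (vertical axis) against time of MAA (3, 8 and 24 h, evenly spaced) for 12 receptors, with circles for replicate 1, squares for replicate 2, and lines with bars for the mean and the standard error of the fit at 5 mM (red) and 1 mM (blue). Nr4a1 at 5 mM runs from 1.92 at 3 h to 0.75 at 24 h, and Nr1h4 from -0.20 to -1.45.

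Among receptors for hormones and other ligands, Vdr, which binds the active form of vitamin D, rose at every time of 5 mM and at 24 h of 1 mM, and stayed under 2-fold. The arrays gave log2 ratios of 0.89 and 0.77 at 3 h, 0.67 and 0.80 at 8 h, and 0.68 and 0.80 at 24 h. At 1 mM they gave 0.23 and 0.18, 0.08 and 0.17, and 0.37 and 0.44. The 5 mM values did not overlap with the 1 mM values at any time. The response was larger at 5 mM by 0.63 at 3 h and by 0.61 at 8 h (limma, adjusted p = 0.019 and 0.0090), and both differences missed the threshold when arrays were centred (limma, adjusted p = 0.081 and 0.082).

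Esrra (ERR alpha), an orphan receptor that controls genes of mitochondrial energy metabolism, rose in all 6 treatments by the adjusted test. Its log2 ratios at 5 mM were 0.63 and 0.56 at 3 h, 0.74 and 0.91 at 8 h, and 0.94 and 0.95 at 24 h. At 1 mM they were 0.38 and 0.35, 0.31 and 0.43, and 0.43 and 0.41. The 5 mM pair stood above the 1 mM pair at each time, by 0.45 at 8 h and 0.53 at 24 h in the mean (limma, adjusted p = 0.022 and 0.014; 0.17 and 0.11 after centring). Esrrg by its brighter probe showed means from -0.25 to 0.01 over the 6 treatments, and Esrrb no signal above background.

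Rxra, the shared partner of the retinoid, thyroid, vitamin D and PPAR receptors, was lower at the earlier times and near 0 by 24 h. At 5 mM the log2 ratios were -0.62 and -0.54 at 3 h, -1.02 and -0.70 at 8 h, and -0.06 and -0.06 at 24 h. At 1 mM they were -0.34 and -0.39, -0.39 and -0.32, and -0.0112 and -0.00221. The 24 h value at 5 mM exceeded the 8 h value by 0.80 (SE 0.11, limma, adjusted p = 0.0069). The Rxra control channels, on a common scale, went down from 7.34 (log2) at 8 h to 6.53 at 24 h. The rise of the ratio is therefore not in itself a rise of Rxra RNA under MAA, and the part of each channel was not tested. Rxrb, with 2 probes, kept means between -0.18 and 0.06. The testicular receptor Nr2c2 (TR4) had means of -0.67, -0.61 and -0.70 at 3, 8 and 24 h of 5 mM, all past the adjusted test, and its relative Nr2c1 -0.33 and -0.28 at 3 h and 8 h.

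The glucocorticoid receptor Nr3c1 had log2 ratios of -0.16 and 0.28 at 3 h of 5 mM, 0.64 and 0.23 at 8 h, and 0.66 and 0.61 at 24 h by its brighter probe. At 1 mM all 6 values were below 0, from -0.246 to -0.00436. The 24 h means of 0.64 at 5 mM and -0.20 at 1 mM differed by 0.84 (limma, adjusted p = 0.029; 0.13 after centring). Its second probe gave a like difference of 0.77 that missed the threshold (limma, adjusted p = 0.058). Pparg, the receptor of adipocyte differentiation, was higher at 24 h of 5 mM alone, with log2 ratios of 0.39 and 0.41 (limma, adjusted p = 0.00979).

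Of the 4 receptors called for a fall, Nr1h4 and Nr2f1 were called at 24 h and Esr1 and Nr1d2 at 8 h. Nr1h4 (FXR), the bile acid receptor, fell late at both concentrations. Log2 ratios were -0.18 and -0.21 at 3 h of 5 mM, -0.59 and -0.68 at 8 h, and -1.43 and -1.48 at 24 h. At 1 mM they were 0.24 and 0.26, then 0.06 and -0.03, then -0.95 and -0.97. Both arrays of each 24 h treatment lay below every array of the earlier times, and the 24 h decreases were 2.74-fold at 5 mM and 1.95-fold at 1 mM (SE 0.06 on the log2 scale, limma, adjusted p = 7.13e-06 and 0.000195). The response was lower at 5 mM than at 1 mM at 3, 8 and 24 h, by differences of -0.45, -0.65 and -0.49 (limma, adjusted p = 0.029, 0.0039 and 0.011). After centring, the difference at 8 h alone passed (limma, adjusted p = 0.042), beside 0.41 at 3 h and 0.10 at 24 h.

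Nr2f1 (COUP-TFI), an orphan receptor that can repress steroidogenic genes, fell with time at 5 mM. The arrays gave -0.52 and -0.64 at 3 h, -0.72 and -1.10 at 8 h, and -1.17 and -1.63 at 24 h. At 1 mM they gave -0.34 and -0.58, -0.42 and -0.60, and 0.01 and -0.37. The 24 h decrease at 5 mM was 2.64-fold (SE 0.15 on the log2 scale, limma, adjusted p = 3.9e-04), and it lay 1.22 below that at 1 mM on the log2 scale (95% interval -1.71 to -0.72, limma, adjusted p = 0.015). Its relative Nr2f2 (COUP-TFII), which Leydig progenitor cells express, had means from -0.34 to 0.20, and none passed the adjusted test.

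Esr1, the alpha form of the estrogen receptor, was called at 8 h of 5 mM with log2 ratios of -1.03 and -1.59, a decrease of 2.48-fold (SE 0.22, limma, adjusted p = 0.0028). The other pairs were -0.996 and -0.179 at 3 h and -0.45 and -0.36 at 24 h of 5 mM, and -0.61 and -0.20, -0.04 and -0.45, and 0.78 and 0.79 at 3, 8 and 24 h of 1 mM. The pair at 24 h of 1 mM is the one above 0, and its mean missed the adjusted threshold (limma, adjusted p = 0.061). The 8 h call was lost without replicate 2 of that treatment, by its p, since the log2 ratio of -1.03 was still past 2-fold. It was also lost under normexp background correction, which gave -0.90, under the fold threshold. A second Esr1 probe was not well above background on 10 of 12 control channels and was called in no treatment.

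The Rev-erb genes, repressors of the clock gene Arntl (Bmal1), were higher at 24 h than at 8 h of 5 mM. Nr1d2 gave log2 ratios of -0.62 and -0.63 at 3 h of 5 mM, -0.82 and -0.75 at 8 h, and 0.34 and 0.30 at 24 h. At 1 mM it gave -0.39 and -0.34, -0.71 and -0.66, and 0.42 and 0.42. All 8 arrays at 3 h and 8 h lay below 0 and all 4 at 24 h above 0, each of the 6 means passed the adjusted test, and the 8 h fall at 1 mM of 1.61-fold was the one past its fold threshold (limma, adjusted p = 0.0015). The 8 h mean of -0.78 at 5 mM was larger in size but under 2-fold. The rise from 8 h to 24 h at 5 mM was 1.10 on the log2 scale (95% interval 0.93 to 1.28, limma, adjusted p = 9.5e-04).

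Nr1d1 by its brighter probe gave 0.34 and 0.55 at 3 h, -0.41 and -0.08 at 8 h, and 0.81 and 1.18 at 24 h of 5 mM. At 1 mM it gave 0.05 and -0.02, -0.35 and -0.14, and 0.61 and 0.74. The 24 h rise was called at 1 mM (1.60-fold, limma, adjusted p = 0.012) and stood just under the fold threshold at 5 mM (1.99-fold, limma, adjusted p = 0.000635). Between 8 h and 24 h of 5 mM the mean rose by 1.24 (limma, adjusted p = 0.0061). The second Nr1d1 probe, also well above background on every array, had means from -0.21 to 0.30 and was called in no treatment, so the probes of this gene disagree. The call at 1 mM was lost without replicate 2 of that treatment, by its p, since the log2 ratio of 0.61 was still past 1.5-fold. With normexp the log2 ratio was 0.26, under the fold threshold.

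Esr2, Nr1i2 and Rarb were dim, and their values are bounds or rest on low signals. For a probe not well above background on either array of a group, a lower bound of the fold is printed: the mean of the brighter group over the dim group set at no less than the lowest signal that is well above background on each array, after scaling of the channels. Esr2, the beta form of the estrogen receptor, was not well above background in any control channel. Its processed signal in MAA-treated RNA was 27.1 and 25.6 at 8 h and 32.6 and 25.6 at 24 h of 5 mM, against 7.65 and 6.34 and 6.68 and 5.01 in the controls. At 3 h of 5 mM the signals were 4.21 and 5.67 against 3.69 and 3.31, all near background. The rise was at least 1.51-fold at 8 h and at least 2.67-fold at 24 h (limma's adjusted p of the measured ratios = 1.7e-04 and 9.0e-05).

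At 1 mM, Esr2 gave MAA signals of 10.8 and 10.7 against control signals of 5.80 and 5.14 after 8 h, and of 8.70 and 8.52 against 4.99 and 4.37 after 24 h. These are rises of at least 1.35-fold at 8 h and, with 1 of 2 MAA channels above background, at least 1.21-fold at 24 h. The call at 3 h of 1 mM had neither channel above background and has no fold. The 1 mM calls did not hold up to the removal of single arrays: the 8 h call was lost without either replicate, the 24 h call without either replicate, and the 3 h call without replicate 1. With normexp, no Esr2 call passed the fold threshold, and 5 mM gave a log2 ratio of 0.31 at 8 h and 0.37 at 24 h.

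Rarb, the retinoic acid receptor whose own promoter is a retinoic acid target, was called at 24 h of 1 mM alone. Signals of MAA-treated RNA there were 70.5 and 60.9 against control signals of 14.8 and 9.23, and 1 of the 2 control channels was well above background. The log2 ratios were 2.27 and 2.75, a mean rise of 5.69-fold (SE 0.17 on the log2 scale, limma, adjusted p = 3.7e-04). At 24 h of 5 mM the MAA signals were 10.98 and 11.8 against 8.72 and 5.75, none above background, so no fold is given. The difference between the concentrations at 24 h is counted and plotted below, but its 5 mM side has no signal above background, so its size is not read. At 5 mM the log2 ratios were -0.30 and -0.14 at 3 h and then 0.73 and 0.85 at 8 h. The 1 mM arrays gave 0.08 and 0.31 at 3 h, then 0.42 and 0.34. The call at 1 mM did not pass the fold threshold with normexp, which gave 0.53. The other retinoic acid receptors, Rara and Rarg, had means from -0.45 to 0.30 over all their probes.

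Nr1i2 (PXR), a sensor of foreign compounds in liver, was not well above background in any control channel. At 24 h of 5 mM its signals were 16.6 and 14.9 against 2.49 and 3.27, with 1 of the MAA channels above background, a rise of at least 1.48-fold (limma's adjusted p of the measured ratio = 5.4e-04). At the other treatments neither channel was above background.

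**Figure D3:**
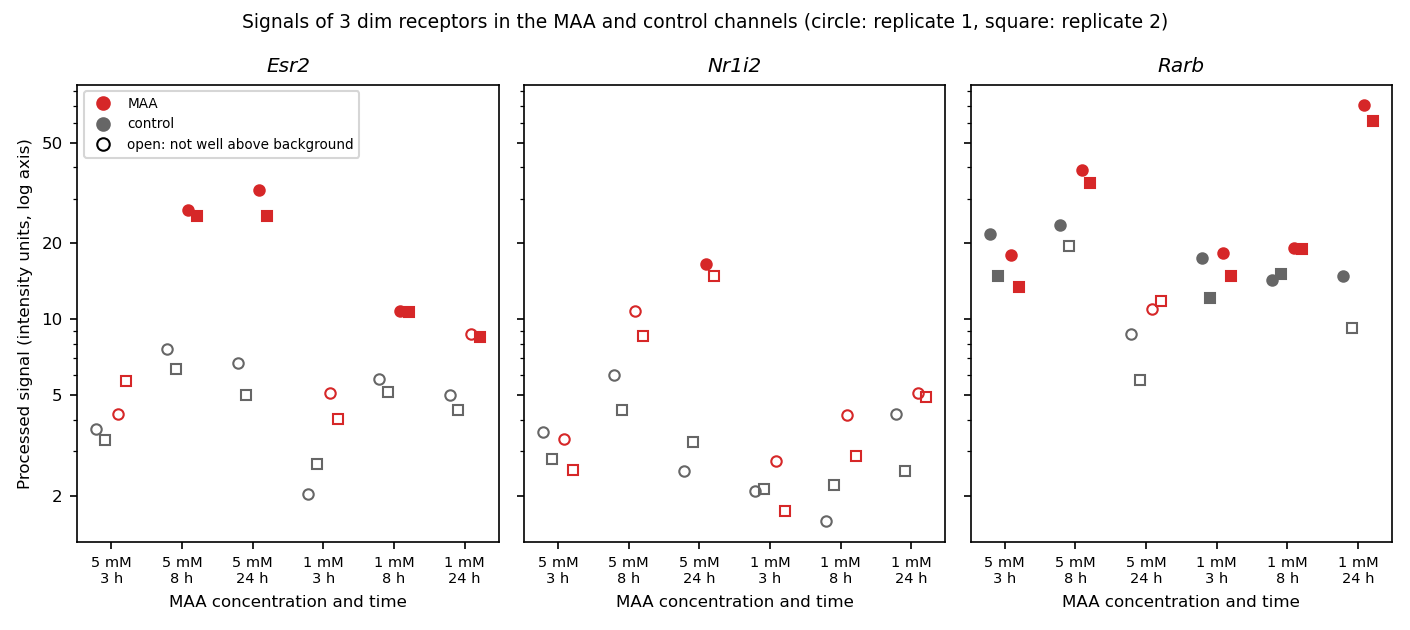
Processed signals (log axis, intensity units) of Esr2, Nr1i2 and Rarb in MAA-treated (red) and control (grey) RNA on each array of the 6 treatments, with circles for replicate 1 and squares for replicate 2. Filled symbols are well above background and open symbols are not. The Rarb signals in MAA-treated RNA were 70.5 and 60.9 at 24 h of 1 mM and 10.98 and 11.8 at 24 h of 5 mM. Signals of different arrays are not on a common scale here.

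The concentrations were compared directly for each receptor. Differences between 5 mM and 1 mM passed an adjusted limma p of 0.05 for 3 receptor probes at 3 h, 7 at 8 h and 7 at 24 h, beside 3.4%, 10.1% and 8.41% of all probes. At 3 h and 8 h the response of Nr4a1 and Vdr was higher, and that of Nr1h4 lower, at 5 mM. At 8 h Esrra, Nr6a1 and Nr4a2 were higher and Rxra lower as well, the last by -0.51 (limma, adjusted p = 0.032). At 24 h Esrra, Nr3c1 and Esr2 were higher and Nr1h4 and Nr2f1 lower, and the calls of Nr1i2 and Rarb had 1 concentration with no signal above background. These counts moved with the processing: with each array centred on its median they were 1, 1 and 4, while the counts over all probes went from 1399, 4162 and 3462 to 220, 1491 and 1525, and leaving out single arrays gave 1 to 2 at 3 h, 2 to 8 at 8 h and 1 to 8 at 24 h. The count at 8 h was lowest without replicate 1 of 8 h at 1 mM (2), and at 24 h without replicate 2 of 24 h at 5 mM or replicate 1 of 24 h at 1 mM (1).

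**Figure D4:**
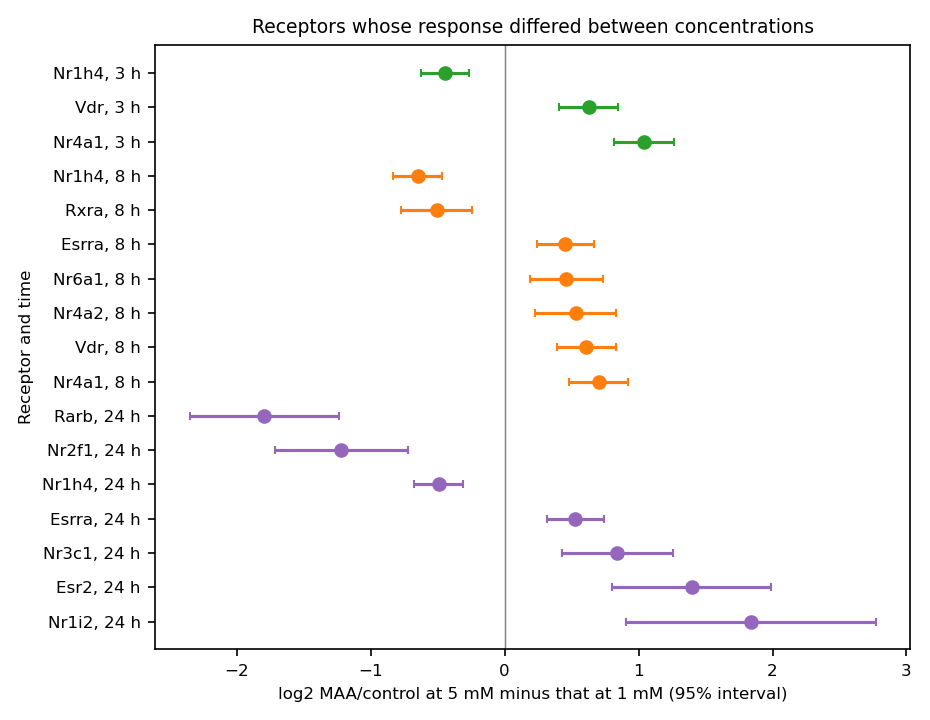
Difference in log2 MAA/control between 5 mM and 1 mM (horizontal axis, mean with 95% interval from the fit) for the receptor and time pairs with an adjusted p under 0.05, coloured by time. Nr4a1 and Vdr lie above 0 at 3 h and 8 h, and Nr1h4 below 0 at 3, 8 and 24 h; Rarb and Nr1i2 at 24 h have 1 concentration without signal above background.

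Over time at 5 mM, 3 receptor probes differed between 8 h and 3 h, 5 between 24 h and 8 h, and 12 between 24 h and 3 h, beside 5.1%, 8.91% and 15.8% of all probes. Between 3 h and 24 h the ratios of Nr4a1, Nr4a2, Nr6a1, Nr1h4 and Nr2f1 went down, and those of Esrra, Rxra, Nr1d2 and Pparg went up. The remaining 3, Esr2, Nr1i2 and Rarb, went up from or to a time at which neither channel was above background. With centred arrays the 24 h to 3 h count was 7, beside 3932 in place of 6510 over all probes.

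A ratio can move because the control moves, so control channels, put on a common scale, are given as means over 4 arrays per time. They are given for called receptors above background in any control channel, and for uncalled ones whose ratio differed between times. Nr4a1 stood at 10.22, 10.18 and 10.68 (log2) at 3, 8 and 24 h. Nr1d2 stood at 13.01, 12.76 and 12.29, and Nr1d1 at 7.14, 6.77 and 6.29. The controls of both Rev-erb genes were lowest at 24 h, the time at which their ratios were highest. From 8 h to 24 h of 5 mM the ratios rose by 1.10 for Nr1d2 and 1.24 for Nr1d1, larger steps than those of the controls. The part of each channel in these ratios was not tested. Nr1h4 stood at 9.65, 9.27 and 9.52, Nr2f1 at 10.44, 9.85 and 9.92, Nr6a1 at 8.54, 7.78 and 8.19, and Esr1 at 7.75, 7.57 and 7.45. Rarb controls went from 4.42 at 3 h to 2.91 at 24 h, with 1 of 4 channels above background at 24 h. Of the uncalled receptors, Rxra stood at 7.41, 7.34 and 6.53, Esrra at 11.03, 10.63 and 10.33, Nr4a2 at 9.25, 9.10 and 8.40, and Pparg at 6.04, 6.97 and 6.375. The controls of Rxra and Esrra were thus lowest at 24 h, the time at which their ratios at 5 mM were highest. No test was run on these levels.

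Of the 24 receptor genes that passed neither rule, 7 had a probe measured on every control channel: Thra, Nr1h2, Nr2f2, Rxrb, Rara, Ppara and Esrrg. Another 9 were measured on some control channels and 8 on none. Over all 35 genes called by no probe, the mean log2 ratio of the 45 probes lay between -1.19 and 0.95, the lower end from Rxrg, which had no signal above background. Among genes that passed the adjusted test alone, the clock receptor Rora did so by its dimmer probe, with means of 0.44 at 3 h of 5 mM and 0.42 and 0.57 at 3 h and 24 h of 1 mM, Rarg had -0.32 and -0.45 on its probes at 3 h of 5 mM, and Nr2f6 -0.28 at 8 h of 5 mM. Thra by its brighter probe kept means between -0.17 and 0.23 and Nr5a1 between -0.14 and 0.24.

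The genes around the receptors were taken from lists of coregulators, of enzymes and binding proteins that supply or remove ligands, and of known receptor target genes. The 30 coregulator genes with a probe each had one measured on every control channel. Of their 47 probes none was called with limma at any time of 5 mM, while 18, 30 and 29 had an unadjusted limma p under 0.05 at 3, 8 and 24 h. These are larger shares than the 32.9%, 38.2% and 38.6% of all probes. Only 58.4% of all probes were measured on every control channel, so the 2 sets are unlike and the shares do not compare directly. The log2 ratios lay between -0.88 and 0.88, with list medians of -0.08, -0.11 and -0.17 at 3, 8 and 24 h. At 24 h of 1 mM, 4 were called, or 8.51% beside 4.68% of all probes, namely 2 probes of the coactivator Ppargc1b (0.65 and 0.67) and 1 each of Ncoa7 (-0.62) and the corepressor Nrip1 (-0.60), named after their values were seen.

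Of 43 ligand supply probes of 36 genes, 2 were called at 3 h, 7 at 8 h and 5 at 24 h of 5 mM, or 4.65%, 16.3% and 11.6% beside 3.76%, 5.55% and 5.62% of all probes. All were rises except 2 falls at 8 h. For 1 mM the counts were 0, 2 and 9, beside 1.95%, 2.37% and 4.68% of all probes, with 1 fall, at 24 h. The list medians at 5 mM were -0.10, 0.22 and 0.26. Cyp26b1, which breaks down retinoic acid, gave 1.13 and 2.38 at 3 h, 1.65 and 2.18 at 8 h, and 1.40 and 1.76 at 24 h of 5 mM. At 3 h neither control channel was above background, and the rise was at least 2.17-fold. Hsd17b1, which makes estradiol from estrone, had means of 1.45 and 1.30 at 3 h and 8 h (SE 0.09) and 0.29 at 24 h, with 1 of the 2 control channels at 3 h above background. Fabp4, a fatty acid carrier that delivers PPAR ligands, had means of 0.27, 1.00 and 1.68 by the probe called at 8 h and 24 h (SE 0.08), and its other probes gave 1.51 and 1.79 at 24 h. Ch25h, which makes the oxysterol 25-hydroxycholesterol, was dim in every control channel and rose at least 1.45-fold at 8 h and 1.53-fold at 24 h, with 1 of 2 MAA channels above background at each time. The 2 falls at 8 h were of Aldh1a2, which makes retinoic acid, and Dhrs3, which reduces retinaldehyde, both named after their values were seen. The Aldh1a2 probe was dim, above background in 9 of 12 MAA channels, and had means of -0.74, -1.26 and 0.48 at 3, 8 and 24 h of 5 mM (SE 0.25, limma, adjusted p = 0.00612 at 8 h) and 1.16 at 24 h of 1 mM, where it was called for a rise. The called Dhrs3 probe had means of -0.90, -1.09 and -0.69 (SE 0.10, limma, adjusted p = 0.000141 at 8 h) and its other probe -0.76, -0.88 and -0.49, while at 24 h of 1 mM both were called for a rise, at 0.77 and 0.60. Leaving out 1 array gave 1 at 3 h without replicate 2 of that time, 4 at 8 h without replicate 1 and 3 at 24 h without replicate 2, and with normexp the counts were 0, 1 and 3.

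Of 50 target gene probes of 39 genes, 3 were called at 3 h, 7 at 8 h and 7 at 24 h of 5 mM, or 6%, 14% and 14%, and for 1 mM 0, 1 and 9, against the same shares of all probes as for the ligand supply list. The 8 h calls held 1 fall, of Dhrs3, which is on both lists, and the 24 h calls of each concentration held 1, of Angptl4, a gene that PPARs induce. Cyp26b1, called at every time of 5 mM, and Cyp24a1, called at 8 h of 5 mM, are on both lists too. All 3 probes of Fkbp5 were among the calls at 8 h and at 24 h of 5 mM. The counts of the 2 lists are therefore not independent, and probes of 1 gene are counted separately. The list medians at 5 mM were 0.08, 0.35 and 0.38. Fkbp5, a chaperone that the glucocorticoid receptor induces and that dampens it, had means of 1.14, 1.19 and 1.27 at 8 h and of 1.07, 1.13 and 1.21 at 24 h on its 3 probes (limma, adjusted p up to 1.8e-04). Arntl, the clock gene that Rev-erb receptors repress, gave 1.07 and 0.97 at 3 h, 1.37 and 1.46 at 8 h, and 0.43 and 0.42 at 24 h of 5 mM (SE 0.06), and 0.45 and 0.44, 0.78 and 0.71, and 0.09 and 0.12 at 1 mM. It was highest at 8 h, where Nr1d2 was lowest, at both concentrations. At 3 h of 5 mM the means of Nr1d2 and of Nr1d1 by its brighter probe were -0.62 and 0.44. At 24 h of 5 mM the means of Nr1d1, Nr1d2 and Arntl were 1.00, 0.32 and 0.43. A link between these genes was not tested. Angptl4, named after its values were seen, had means of -0.01, 0.08 and -1.11 at 3, 8 and 24 h of 5 mM (SE 0.06, limma, adjusted p = 2.96e-05 at 24 h) and -1.02 at 24 h of 1 mM. The 2 probes of Tsc22d3, which the glucocorticoid receptor induces, also named after their values were seen, had means of -0.60 and -0.62 at 3 h, -0.95 and -0.88 at 8 h, and -0.39 and -0.35 at 24 h of 5 mM, none of them past the fold threshold. The 24 h count was 4 without replicate 2 of that treatment, and with normexp the 3 h and 24 h counts were 0 and 4.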

How the data were processed

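RNA of MAA-treated and control TM3 cells was hybridised together on 12 two-colour Agilent arrays on 3 slides. Feature Extraction (version 9.5.3.1 per the file headers) was run by the authors, who subtracted background and normalized the dyes (linear, then LOWESS). The scanner files they deposited hold the resulting signal intensity of each channel. Log10 ratios were deposited as well, and these equalled the scanner files' ratios, turned to MAA over control, within 0.0051. Here, log2 MAA/control was taken from the processed intensities after removal of 1639 control spots of 45018 and of outlier spots, and spots of one probe were averaged.

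Probes were named by matching their accession to RefSeq genes (GRCm38.p6). limma 3.58.1 in R 4.3.3, with the data.table package (1.17.8), was fitted to all 41174 probes with a term for each of the 6 treatments (6 residual degrees of freedom and 1.52 prior ones). P-values were adjusted by Benjamini-Hochberg over all probes. They measure the spread between the 2 arrays of a treatment, which differ in pool, slide and dye orientation together. Deviations of same-numbered arrays correlated at a median of 0.375, so the residual degrees of freedom are not fully independent. The call thresholds (p under 0.005, 2-fold or 1.5-fold) are those of the study, whose error model was not run. The rule of an adjusted p under 0.05 at any size was added after the values were seen. Receptors called in any treatment were described array by array, and context genes were named if called at 2 or more times of 5 mM. Other receptors shown by array were chosen for passing the adjusted test.

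The members and lists were chosen with earlier results of these data known. Alternatives were normexp (offset 50) with loess, the deposited ratios, centring, filters on dim and outlier spots, the replicate number or slide as a block, other thresholds, and leaving out each array. The fit was tested on simulated data. Figures and promoter searches used Python 3.11.15, pandas 2.3.3 and matplotlib 3.10.9. The number of arrays limits the precision.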

Additional observations from a re-analysis of the deposited data

Results flagged for a closer look

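These receptors had a response that differed between concentrations or times by a limma contrast at an adjusted p under 0.05, with signal above background on both sides of the contrast in at least 1 channel. Values are differences in log2 MAA/control. No cause was tested.

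Between 5 mM and 1 mM, the difference was 1.04 for Nr4a1, 0.63 for Vdr and -0.45 for Nr1h4 at 3 h. At 8 h it was 0.70 for Nr4a1, 0.61 for Vdr, 0.53 for Nr4a2, 0.46 for Nr6a1, 0.45 for Esrra, -0.51 for Rxra and -0.65 for Nr1h4. At 24 h it was 1.40 for Esr2, a difference of measured ratios whose control channels were not above background and which was 0.32 with normexp, 0.84 for Nr3c1, 0.53 for Esrra, -0.49 for Nr1h4 and -1.22 for Nr2f1.

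Between times of 5 mM, the 8 h response differed from the 3 h response by -0.85 for Nr4a1 and -0.44 for Nr1h4. From 8 h to 24 h the difference was 1.24 for Nr1d1, 1.10 for Nr1d2, 0.80 for Rxra, 0.50 for Pparg and -0.82 for Nr1h4. From 3 h to 24 h it was 0.94 for Nr1d2, 0.52 for Rxra, 0.43 for Pparg, 0.35 for Esrra, -0.47 for Nr6a1, -0.72 for Nr4a2, -0.82 for Nr2f1, -1.17 for Nr4a1 and -1.26 for Nr1h4. The Nr1d1 difference is from the brighter of 2 probes that disagree. The control channels of Rxra, Esrra, Nr1d1, Nr1d2 and Nr4a2 were lowest at 24 h, and the part of each channel in these differences was not tested.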

How the results depend on the processing

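The 17 called receptor values kept their direction under every alternative that gave a value, Nr1i2 at 24 h of 5 mM having none with dim probes left out, and all 17 stayed called with the deposited ratios, centring, outlier spots kept, and the replicate or slide block. With normexp 10 of 17 fell short of the threshold, and the counts called were 1, 1 and 2 at 3, 8 and 24 h of 5 mM and 1, 1 and 1 at 1 mM. Its offset of 50 is added to both channels and exceeds most signals of Esr2, Nr1i2 and Rarb. This shrinks their ratios, so for these dim probes a missed fold threshold follows in part from the setting. Leaving out 1 array kept 196 of 204 values called, and the counts ranged from 1 to 2, 3 to 4 and 4 to 6 at 5 mM and from 1 to 2, 1 to 2 and 3 to 5 at 1 mM. Most of the 204 removals left out an array of another treatment, which cannot change the mean ratio. The 8 lost calls each came from removing an array of the treatment itself, so the share kept overstates how well the calls hold. With dim probes left out, or with the 6 arrays of one concentration fitted alone, 1 receptor probe was called at 3 h of 1 mM. With an adjusted p and no fold threshold, added after the data were seen, 16, 18 and 15 receptor probes passed for 5 mM and 8, 6 and 10 for 1 mM.

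Counts of differences between treatments moved more. Centring gave 1, 1 and 4 between concentrations at 3, 8 and 24 h, and 7 between 24 h and 3 h, while over all probes 1399, 4162, 3462 and 6510 became 220, 1491, 1525 and 3932. Normexp gave 1 between 8 h and 3 h, and the slide block 7. Leaving out 1 array gave 1 to 2, 2 to 8 and 1 to 8 between concentrations, 1 to 3 between 8 h and 3 h, 3 to 5 between 24 h and 8 h, and 6 to 10 between 24 h and 3 h. The cause was not tested.

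With the replicate block, 8 probes differed between concentrations at 3 h, 8 between 8 h and 3 h and 9 between 24 h and 8 h, against 3, 3 and 5 without it, and over all probes 4003, 5271 and 7413 against 1399, 2101 and 3670. The replicate number is also the dye orientation. Deviations of same-numbered arrays correlated at 0.075 to 0.515 (median 0.375) over 15 pairs of treatments, 14 of them over 0.1. Every pair had to pass 0.1 for the block to be used, so the fit without it was kept, and these correlations do not show that a shared replicate or dye effect is absent. Receptors measured on at least 6, or at least 1, of 12 control channels numbered 31 and 35, beside 25 on all 12. Adding accession matches to symbol matches was not run as an alternative, since accessions were the matching used. Signals near background limit Esr2, Nr1i2 and Rarb.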
